A study of Mus musculus with 24 samples.

Results

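The genes described here encode surface proteins that flow cytometrists use to separate hematopoietic stem cells (HSC), the multipotent progenitors called MPP3 and the committed progenitors that follow them in mouse bone marrow. They are Slamf1, Cd48, Cd34, Ly6a, Kit, Fcgr3, Fcgr2b and Cd27, 8 of the 55376 gene symbols counted, and they were taken by symbol and not by their values. They were read in 24 bulk RNA-seq libraries of sorted marrow cells, to see whether the transcripts in each group match the gate under which it was collected.

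All mice were male. TTPΔARE mice are homozygous for the removal of an AU-rich element from the 3′ untranslated region (UTR) of Zfp36 in every cell of the body, and Zfp36 encodes tristetraprolin (TTP), a protein that binds such elements in mRNA and speeds its decay. WT mice were littermates. Young (Y) mice were 4 to 5 months old and middle-aged (M) mice were 1 year old. HSC came from 5 M-WT, 3 M-TTPΔARE, 4 Y-WT and 4 Y-TTPΔARE samples, and MPP3 from 4 Y-WT and 4 Y-TTPΔARE samples. HSC were gated as Lin- Sca-1+ c-Kit+ cells that were CD34-, Flk2- and CD150+. MPP3 were gated as Lin- Sca-1+ c-Kit+ cells that were Flk2-, CD150- and CD48+. Fcγ receptor staining was used in the study for committed progenitors and is in neither gate, and CD27 is in none. Which samples came from separate mice is given for no library, so p-values measure the spread between these samples.

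Stem and progenitor cells of mouse marrow carry few surface proteins of their own, and they are told apart by combinations. Ly6a encodes Sca-1 and Kit encodes c-Kit, the receptor for stem cell factor, and together, on cells without lineage markers, they mark the compartment that holds HSC and multipotent progenitors. Slamf1 encodes CD150 and Cd48 encodes CD48, both receptors of the SLAM family, and HSC are known for displaying the former without the latter. Cd34 encodes a sialomucin that adult mouse HSC display little of and that appears as they differentiate. Fcgr3 encodes the activating low-affinity receptor for IgG and Fcgr2b the inhibitory one, which the usual antibody does not distinguish, and granulocyte-monocyte progenitors display much of it. Cd27 encodes a TNF receptor family member found on most multipotent progenitors and on lymphocytes.

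Each library held between 24261371 and 39934554 counts, with a median of 34817620.5. Levels are given as CPM, each gene's count relative to the library's total after TMM scaling. A gene was called changed where edgeR's quasi-likelihood test gave an adjusted p under 0.05, provided that it also changed over 1.2-fold and that its logCPM averaged over 1.5, the expression limit. Zfp36 checks the genotype labels. It was at 33.1 to 72.6 CPM in Y-WT HSC against 83.3 to 113 in Y-TTPΔARE HSC, at 43.6 to 64.2 in M-WT HSC against 91.5 to 110.3 in M-TTPΔARE HSC, and at 21.6 to 34.6 in Y-WT MPP3 against 72.7 to 118 in Y-TTPΔARE MPP3, so that no library overlapped the other genotype of its group. Y-WT HSC replicates 1 and 4 stood apart from replicates 2 and 3. The summed CPM of 6 endothelial markers was 823, 382, 382 and 821 in replicates 1 to 4, and that of 13 monocyte or macrophage markers was 342, 123, 117 and 331. Values without this pair are given where its absence ended a call or moved a difference by over 1.5-fold. In the sample titles, M HSC carry the numbers 1 to 8, Y HSC 11 to 18 and MPP3 21 to 28, so age and cell type follow the numbering and cannot be told apart from anything handled in that order.

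The gates were reflected in programmes that lie outside them. Mpo, which encodes the myeloperoxidase of granulocytes and their precursors, averaged 3.65 ± 2.31 CPM in Y-WT HSC and 638 ± 349.6 in Y-WT MPP3 (SD, n = 4 each). Vwf, which encodes von Willebrand factor and marks platelet-biased HSC, averaged 103 ± 9.86 and 7.28 ± 1.70 CPM. Of 14 genes of an HSC programme, 13 were lower in Y-WT MPP3 than in Y-WT HSC and none was higher, and of the 10 measured genes of a myeloid progenitor programme 9 were higher and none was lower, where 24.7% of all genes were called higher and 13.1% lower. In the comparison of the 2 Y HSC groups only 6 of the 12 myeloid genes were over the expression limit. Some thus passed it through their level in MPP3, and the number called is no support. The summed CPM of all 12 was 775 to 954 in Y-WT HSC and 1550 to 2792 in Y-WT MPP3. That of the 14 HSC genes was 3791 to 4959 and 1859 to 2423. The labels HSC and MPP3 therefore held in both sums.

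Several of the genes lie close together. Fcgr2b, Fcgr3, Cd48 and Slamf1, 4 of the 8, sit within 842568 bases of chromosome 1 (GRCm38). Fcgr2b is at chr1:170958617-170976547 and Fcgr3 at chr1:171051174-171064935, both on the minus strand, and Cd48 is at chr1:171682009-171705258 and Slamf1 at chr1:171767127-171801184, both on the plus strand. Cd34 lies further along at chr1:194938819-194961279 on the plus strand. Kit is at chr5:75574916-75656722 (plus), Cd27 at chr6:125232622-125237010 (minus) and Ly6a at chr15:74994877-74998031 (minus). Gm16897, an antisense gene with exons that overlap those of Cd34, and Gm38204, antisense to Fcgr2b, could share reads with them if strand was not used in counting, which is not stated. Of the windows of 100 bases along the exons, 2.54% in Fcgr3, 1.40% in Fcgr2b and 1.45% in Ly6a were found in another gene as well.

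TTP binds AU-rich elements, so the 3′ UTRs of the genes were searched on the mRNA strand for the core motif ATTTA, for TATTTAT, which contains it, and for the still longer TTATTTATT. Slamf1 held 4 copies of ATTTA, Kit 3, Fcgr2b 2 and Cd34 1, and Cd48, Ly6a, Fcgr3 and Cd27 held none. None of the 8 held TATTTAT. Of 21020 genes with a 3′ UTR (median 961 bases), 65.2% held ATTTA, 27.6% TATTTAT and 7.66% TTATTTATT. Zfp36 itself held 3 copies of TATTTAT, of which 1 lies within a TTATTTATT. Of the genes that the quasi-likelihood test called between genotypes, Cd34 and Fcgr2b held ATTTA and Fcgr3 held none. Slamf1, with the most copies, was not called between genotypes by that test. The sites of Slamf1, Cd34 and Fcgr2b are shown with that of Zfp36, with the motif in capitals, and those of Kit are not shown. Positions in the order of printing are chr7:28376953-28376977 (minus), chr1:171800381-171800401, chr1:171800536-171800556, chr1:171801073-171801093, chr1:171801082-171801102, chr1:194960617-194960637 (all plus), chr1:170960535-170960555 and chr1:170959813-170959833 (both minus).
Zfp36, 589 bases past the stop codon: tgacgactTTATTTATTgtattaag
Slamf1, 766 bases past: acttttgaATTTAagttctct
Slamf1, 921 bases past: agtagtaaATTTAacctcaag
Slamf1, 1458 bases past: ctttctgtATTTAgataattt
Slamf1, 1467 bases past: tttagataATTTAcagtgtga
Cd34, 831 bases past: cactgtggATTTAgtcaccaa
Fcgr2b, 467 bases past: atctttctATTTActttttca
Fcgr2b, 1189 bases past: aggcagctATTTAagcttgct
The last pair of Slamf1 windows overlap, so they print the same stretch in part. In these windows the motif of Slamf1, Cd34 and Fcgr2b is the core of the element alone, without the flanking T on both sides that the Zfp36 site has. A match describes letters and not binding.

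The spread between groups differed greatly among the genes. The highest group mean exceeded the lowest 83.9-fold for Cd48, 77.0-fold for Slamf1, 36.7-fold for Fcgr3, 12.9-fold for Cd34 and 10.5-fold for Fcgr2b. It did so 1.83-fold for Kit and for Cd27 and 1.51-fold for Ly6a. Sca-1 and c-Kit are required by both gates, and their transcripts were among the 3 that varied least. Per kilobase of exon, the scale on which genes can be compared, the most abundant in Y-WT HSC were Ly6a at 191 ± 19.2 and Kit at 138 ± 8.46 CPM per kb (SD, n = 4). Slamf1 at 9.61 ± 0.592 and Cd48 at 8.21 ± 2.40 CPM per kb were close to each other there, although HSC are gated on the protein of the former and known to lack that of the latter. In Y-WT MPP3 the most abundant was Cd34 at 210.5 ± 24.5 CPM per kb, followed by Kit at 153 ± 19.1, Ly6a at 147 ± 45.0 and Cd48 at 137 ± 58.1.

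**Figure D1:**
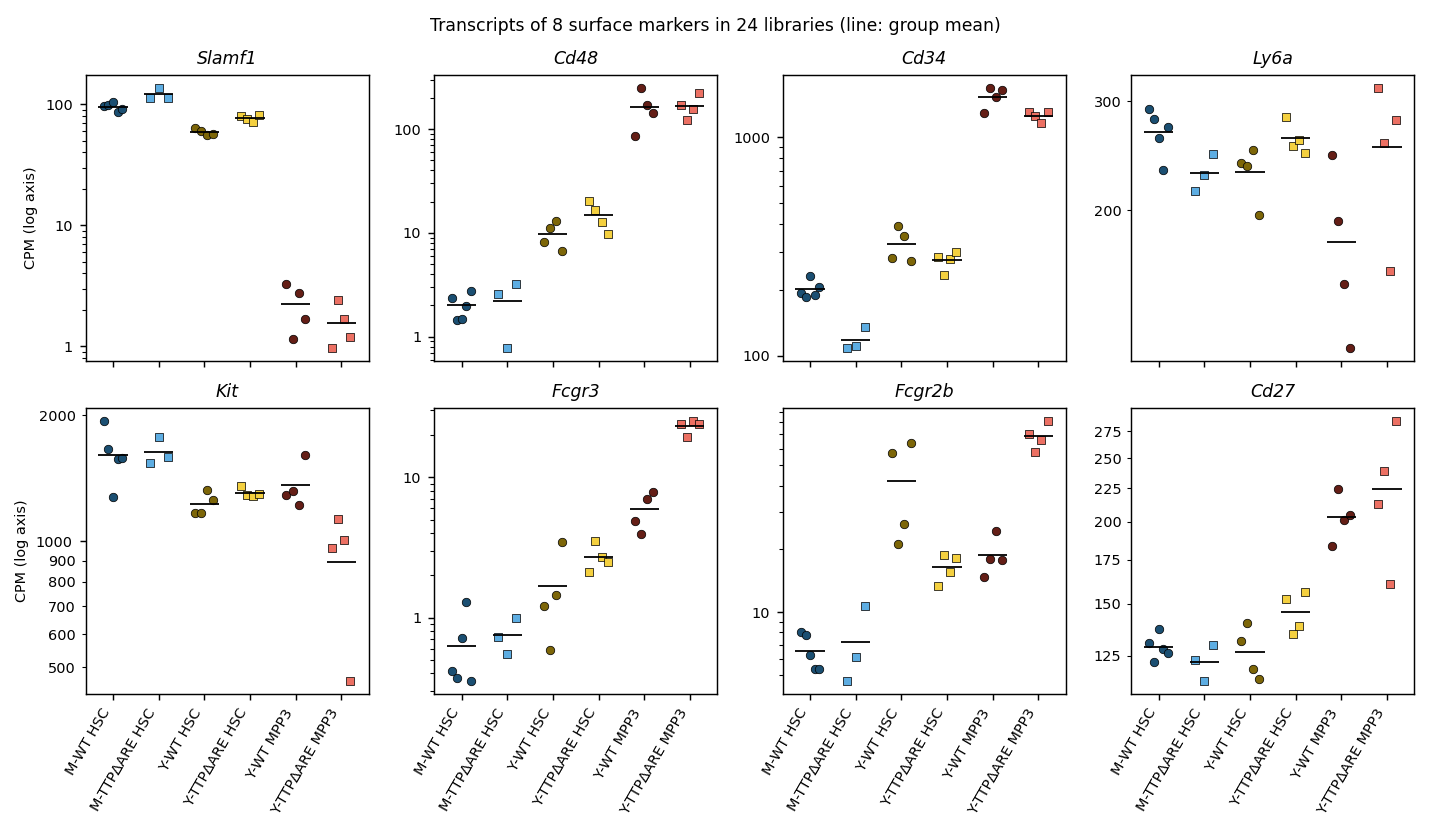
CPM (log axes) of the 8 genes in the 24 libraries by group, with a point for each library (circles WT, squares TTPΔARE) and a line at the group mean. Slamf1 fell to between 0.977 and 3.27 CPM in the MPP3 libraries, Cd48 and Cd34 were highest in them, and the groups overlapped most for Ly6a.

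Slamf1 and Cd48 separated HSC from MPP3 in opposite directions. Slamf1 was at 63.6, 60.5, 55.5 and 56.9 CPM in Y-WT HSC and at 3.27, 1.16, 2.77 and 1.69 in Y-WT MPP3. In the TTPΔARE mice it was at 80.2, 75.7, 71.1 and 80.9 CPM in HSC and at 0.977, 2.42, 1.67 and 1.19 in MPP3. Every HSC library lay far above every MPP3 library. The level in MPP3 was 3.76% of the mean of Y-WT HSC in WT and 2.65% in TTPΔARE mice, from 30 to 103 counts per library. The log2 fold change of MPP3 against HSC was -4.69 (SE 0.31, adjusted p = 2.55e-05) in Y-WT and -5.60 (SE 0.27, adjusted p = 1.98e-06) in Y-TTPΔARE mice. CD150 is part of both gates, so the direction of this difference was set by the sort, and the same holds for CD48 and CD34 where a gate names them.

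Cd48 was at 8.19, 11.2, 13.0 and 6.69 CPM in Y-WT HSC and at 85.4, 252, 171 and 143 in Y-WT MPP3. In TTPΔARE mice it was at 20.2, 16.7, 12.6 and 9.77 CPM in HSC and at 172, 123, 155 and 221 in MPP3. The cell types did not overlap, and the MPP3 libraries spread over a wider range than those of Slamf1 in HSC. Cd48 was 17.0-fold higher in MPP3 of Y-WT mice (log2 fold change 4.09, SE 0.33, adjusted p = 5.76e-05) and 11.4-fold higher in those of Y-TTPΔARE mice (3.51, SE 0.25, adjusted p = 1.56e-05). Within a library the count of Slamf1 exceeded that of Cd48 by a median of 6.59-fold in Y-WT HSC and 5.08-fold in Y-TTPΔARE HSC. In MPP3 the count of Cd48 exceeded that of Slamf1 by a median of 73.2-fold in Y-WT and 134.6-fold in Y-TTPΔARE mice.

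**Figure D2:**
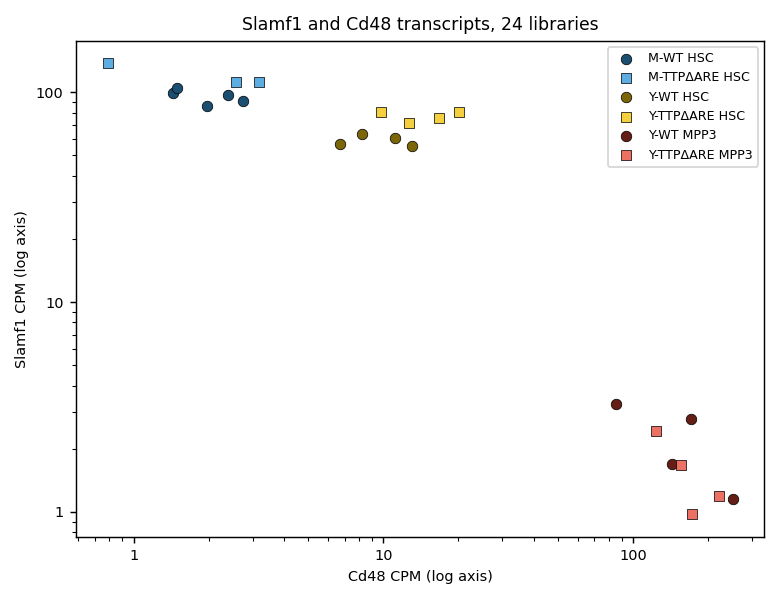
Slamf1 CPM (vertical, log axis) against Cd48 CPM (horizontal, log axis) in the 24 libraries, coloured by group. MPP3 lie at the lower right, Y HSC in the upper middle with Cd48 between 6.69 and 20.2 CPM, and M HSC at the upper left with Cd48 between 0.786 and 3.19 CPM.

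Cd34 was at 279, 392, 353 and 273 CPM in Y-WT HSC and at 1288, 1687, 1521 and 1641 in Y-WT MPP3. In TTPΔARE mice it was at 285, 236, 279 and 299 CPM in HSC and at 1299, 1246, 1163 and 1304 in MPP3. Every HSC library lay far below every MPP3 library, yet the HSC, gated as CD34-, held 21.1% (Y-WT) and 17.9% (Y-TTPΔARE) of the mean of Y-WT MPP3. The log2 fold changes were 2.27 (SE 0.12, adjusted p = 1.25e-05) in Y-WT and 2.19 (SE 0.11, adjusted p = 1.98e-06) in Y-TTPΔARE mice. Flt3, which encodes the Flk2 that both gates require to be absent, was at 52.8 ± 9.42 CPM in Y-WT HSC and 514 ± 62.1 in Y-WT MPP3 (SD, n = 4), a log2 fold change of 3.31 (SE 0.14, adjusted p = 5.28e-06). Cd34 and Flt3 transcripts were thus present in cells sorted as lacking the proteins.

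The genes that neither gate uses moved as well. Fcgr3 was at 1.21, 0.590, 1.46 and 3.46 CPM in Y-WT HSC and at 4.86, 3.96, 7.05 and 7.89 in Y-WT MPP3, a log2 fold change of 1.84 (SE 0.49, adjusted p = 0.0231). The groups came close, with the highest HSC library just under the lowest MPP3 library, and the call was lost without HSC replicate 3 (1.77, adjusted p = 0.0585), MPP3 replicate 3 (1.71, adjusted p = 0.0598) or MPP3 replicate 4 (1.76, adjusted p = 0.0555), with adjusted p from 0.00181 to 0.0598 over all alternatives. Without HSC replicate 4, the highest of its group, the difference was 2.49, and without replicates 1 and 4 it was 2.61 (adjusted p = 0.0157). In TTPΔARE mice Fcgr3 was at 2.12, 3.50, 2.68 and 2.50 CPM in HSC and at 23.9, 19.4, 25.4 and 23.8 in MPP3, a wide gap and a log2 fold change of 3.11 (SE 0.20, adjusted p = 9.21e-06). Cd27 was at 115 to 140.4 CPM in Y-WT HSC and at 184 to 225 in Y-WT MPP3, a log2 fold change of 0.71 (SE 0.094, adjusted p = 0.000679). In TTPΔARE mice Cd27 was at 135 to 157 CPM in HSC and at 161 to 286 in MPP3 (0.62, SE 0.15, adjusted p = 0.0157). That call was lost without HSC replicate 1 (0.62, adjusted p = 0.0964), 2 (0.59, adjusted p = 0.0612) or 3 (0.61, adjusted p = 0.055), or MPP3 replicate 1 (0.67, adjusted p = 0.0545) or 2 (0.61, adjusted p = 0.0717), with adjusted p from 0.00016 to 0.0964 over all alternatives.

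Kit and Ly6a, on which both gates select alike, were not called between the cell types. Kit was at 1169, 1169, 1325 and 1254 CPM in Y-WT HSC and at 1291, 1323, 1224 and 1609 in Y-WT MPP3, with overlap (0.17, SE 0.081, adjusted p = 0.155). Ly6a was at 197 to 249.9 CPM in Y-WT HSC and at 119.9 to 246 in Y-WT MPP3 (-0.34, SE 0.21, adjusted p = 0.283). Without MPP3 replicate 1, the highest of its group, Ly6a was called lower (-0.60, adjusted p = 0.0348), and adjusted p ranged from 0.0348 to 0.605 over the alternatives. In Y-TTPΔARE mice Kit was at 1284 to 1357 CPM in HSC and at 965, 1133, 1005 and 465 in MPP3, so that the cell types did not overlap, but the difference was not called (-0.54, SE 0.23, adjusted p = 0.144). Replicate 4 was the lowest, and without it Kit was called lower (-0.32, adjusted p = 0.0135), with adjusted p from 0.0135 to 0.265 over the alternatives. Ly6a differed by -0.053 (SE 0.16, adjusted p = 0.892) there.

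Fcgr2b differed between cell types with opposite signs in the 2 genotypes. It was at 57.3, 21.1, 26.3 and 63.9 CPM in Y-WT HSC and at 14.7, 18.0, 24.2 and 17.7 in Y-WT MPP3, with overlap (-1.16, SE 0.36, adjusted p = 0.0431). Replicates 1 and 4 of Y-WT HSC were the high ones, and without both the difference was -0.27 (adjusted p = 0.402). The call was also lost without HSC replicate 1 (-0.90, adjusted p = 0.0968) or 4 (-0.84, adjusted p = 0.121) alone, and without MPP3 replicate 1 (-1.09, adjusted p = 0.0801), 2 (-1.10, adjusted p = 0.118) or 4 (-1.05, adjusted p = 0.105), and adjusted p ranged from 0.00313 to 0.402 over all alternatives. In TTPΔARE mice Fcgr2b was at 13.3, 18.6, 15.6 and 18.0 CPM in HSC and at 70.2, 58.1, 66.1 and 81.5 in MPP3. There every MPP3 library was above every HSC library (2.08, SE 0.16, adjusted p = 1.87e-05).

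In all, 4 genes were called higher and 2 lower in Y-WT MPP3 than in Y-WT HSC, where 37.7% of all genes over the expression limit were called, 24.7% higher and 13.1% lower. In Y-TTPΔARE mice 5 were called higher and 1 lower, where 26.2% of all genes were called, 14.6% higher and 11.6% lower. The cell types did not overlap for 5 of the 8 genes in Y-WT mice, against 38.9% of all genes, and for 7 of the 8 in Y-TTPΔARE mice, against 30.9% of all genes. All 8 passed the filter on low counts and the expression limit in both comparisons. The median log2 difference over all genes was 0.12 in Y-WT and moved to -0.10 when library totals were used without scaling factors, and a difference as small as that of Kit in Y-WT mice turned to -0.049 with it.

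**Figure D3:**
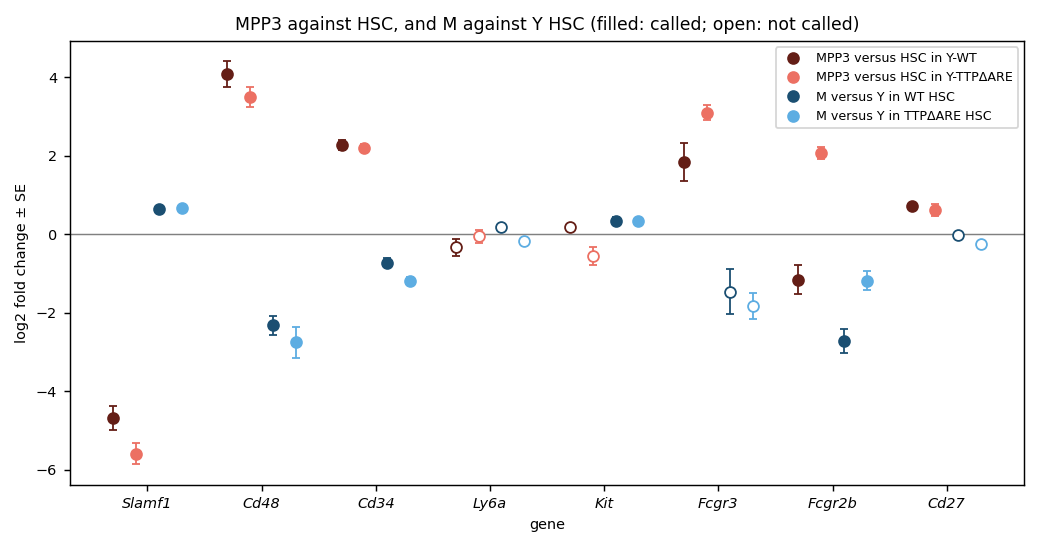
Log2 fold changes (vertical, ± SE) of the 8 genes for MPP3 against HSC and for M against Y HSC, in WT and in TTPΔARE mice, with filled points for called differences and open points for those not called. Slamf1 had the lowest value and Cd48 the highest for MPP3 against HSC, and with age both moved the other way, by 0.65 and -2.32 in WT HSC.

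The HSC of middle-aged mice had more Slamf1 and less Cd48, Cd34 and Fcgr2b transcript than those of young mice. Slamf1 was at 97.4, 98.9, 105, 86.2 and 90.9 CPM in M-WT HSC and at 112, 138 and 112 in M-TTPΔARE HSC, above all 8 young HSC libraries. The log2 fold change with age was 0.65 (SE 0.066, adjusted p = 0.00023) in WT and 0.66 (SE 0.090, adjusted p = 0.00131) in TTPΔARE HSC. Both calls were lost in a fit of all 24 libraries (0.66, adjusted p = 0.0612, and 0.66, adjusted p = 0.207) and kept in the other alternatives, whose adjusted p went down to 2.57e-20 and 2.2e-09. Cd48 was at 2.38, 1.44, 1.49, 1.96 and 2.74 CPM in M-WT HSC and at 2.57, 0.786 and 3.19 in M-TTPΔARE HSC, below all young HSC libraries. It fell by 2.32 on the log2 scale in WT (SE 0.25, adjusted p = 0.000343) and by 2.76 in TTPΔARE HSC (SE 0.40, adjusted p = 0.00197). The level in M-WT HSC was 1.23% of that in Y-WT MPP3, against 6.00% in Y-WT HSC. Within a library the count of Slamf1 exceeded that of Cd48 by a median of 44.0-fold in M-WT and 43.4-fold in M-TTPΔARE HSC.

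Cd34 was at 194, 186, 232, 189 and 207 CPM in M-WT HSC, under the 4 Y-WT libraries, and fell by 0.73 with age in WT (SE 0.12, adjusted p = 0.00239) and by 1.198 in TTPΔARE HSC (SE 0.10, adjusted p = 8.33e-05). Fcgr2b was at 8.02, 7.79, 6.28, 5.35 and 5.36 CPM in M-WT HSC, under every Y-WT library, and fell by 2.72 in WT (SE 0.31, adjusted p = 0.000431). Without Y-WT replicates 1 and 4 the fall was -1.90 (adjusted p = 0.000679), so the call stood while its size moved. In TTPΔARE HSC, where M libraries were at 4.72, 6.13 and 10.6 CPM, Fcgr2b fell by 1.19 (SE 0.24, adjusted p = 0.0113). Kit was at 1943, 1658, 1274, 1577 and 1580.0 CPM in M-WT HSC and at 1535, 1771 and 1590.4 in M-TTPΔARE HSC. It was higher by 0.34 (SE 0.10, adjusted p = 0.0414) in WT, where 1 M library lay among the young, and by 0.33 (SE 0.067, adjusted p = 0.0113) in TTPΔARE HSC, without overlap.

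The call of Kit with age in WT HSC was lost without M-WT replicate 1 (0.27, adjusted p = 0.076), 2 (0.35, adjusted p = 0.069), 4 (0.33, adjusted p = 0.0671) or 5 (0.35, adjusted p = 0.0755) and without Y-WT replicate 2 (0.32, adjusted p = 0.112) or 4 (0.35, adjusted p = 0.0835) or both 1 and 4 (0.32, adjusted p = 0.0945), and adjusted p lay between 0.00584 and 0.13 over all alternatives. Without M-TTPΔARE replicate 2 the calls of Kit (0.27, adjusted p = 0.0678) and Fcgr2b (-1.09, adjusted p = 0.073) in TTPΔARE HSC were lost. Over 14 alternatives Kit lost its call in 4, with adjusted p from 2.92e-05 to 0.372, and Fcgr2b in 1.

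Fcgr3, Ly6a and Cd27 were not called with age in the fits of these groups alone. Fcgr3 was at 0.355 to 1.29 CPM in M-WT HSC, so its average was under the expression limit in both comparisons, and it differed by -1.46 (SE 0.58, adjusted p = 0.0945) in WT and by -1.83 (SE 0.34, adjusted p = 0.00677) in TTPΔARE HSC. A fit of all 24 libraries called it lower in WT (-1.45, adjusted p = 0.032, of a range up to 0.415) and in TTPΔARE HSC (-1.84, adjusted p = 0.0405), as did the TTPΔARE test without the expression limit, and without Y-WT replicates 1 and 4 the difference in WT was -0.75 (adjusted p = 0.415). Ly6a differed by 0.18 (SE 0.081, adjusted p = 0.14) in WT and by -0.18 (SE 0.070, adjusted p = 0.172) in TTPΔARE HSC. Cd27 differed by -0.015 (SE 0.063, adjusted p = 0.887) and by -0.24 (SE 0.076, adjusted p = 0.0842). With age, 2 genes were called higher and 3 lower in WT, beside 19.7% of all genes (13.7% higher and 6.03% lower), and likewise 2 and 3 in TTPΔARE HSC, beside 14.2% of all genes (8.58% higher and 5.59% lower). In WT HSC the ages did not overlap for 4 of the 8 genes, against 22.6% of all genes. In TTPΔARE HSC they did not overlap for any of the 8 genes, against 26.3% of all genes. Cd48 reached the expression limit through Y HSC, as it averaged 2.00 CPM in M-WT and 2.18 in M-TTPΔARE HSC. Counts of genes that include Cd48 are therefore no support. The monocyte or macrophage markers moved with age too, from a sum of 117 to 342 CPM in Y-WT to 54.1 to 71.4 CPM in M-WT HSC, and their part in the fall of Fcgr2b was not tested. In bulk samples fewer cells of a type and less RNA per cell cannot be told apart.

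Fcgr2b and Fcgr3 were the genes that varied most among the Y-WT HSC libraries, Fcgr3 mainly through replicate 4. For Fcgr2b, the 57.3 and 63.9 CPM of replicates 1 and 4 stood beside 21.1 and 26.3 in replicates 2 and 3. In the same libraries, in the order 1 to 4, Cdh5, which encodes VE-cadherin, was at 19.99, 6.04, 4.56 and 23.7 CPM and Kdr, a VEGF receptor, at 99.3, 36.6, 34.9 and 130. Fabp4 was at 321, 40.0, 42.2 and 281 CPM and Vcam1, found on endothelium, stroma and marrow macrophages, at 205, 31.3, 34.7 and 178. All 6 endothelial markers were higher in both replicates 1 and 4 than in both others, as were 4 of 13 monocyte or macrophage markers (C1qa, C1qb and Vcam1 among them), 1 of 8 dendritic cell and none of 6 neutrophil markers, against 27.2% of all genes. The pair stood apart by the endothelial and monocyte or macrophage sums themselves, so the counts for these markers are no independent support. The sum of the full list of 7 neutrophil markers was 6.38, 18.9, 7.32 and 167 CPM in replicates 1 to 4, high in replicate 4 alone. No endothelial marker was at 0 in a Y-WT HSC library. The part of other cells in the level of Fcgr2b was not tested. In the other HSC groups the endothelial sum lay between 385 and 484 CPM.

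**Figure D4:**
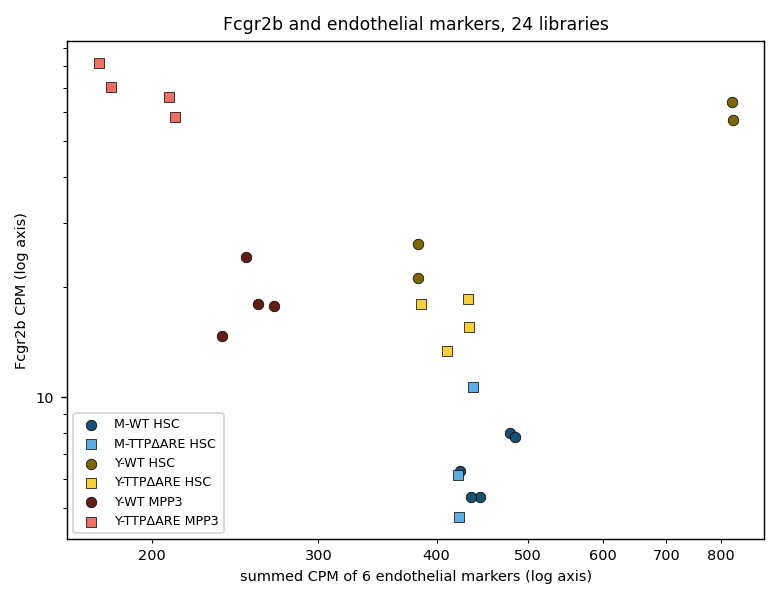
Fcgr2b CPM (vertical, log axis) against the summed CPM of 6 endothelial markers (horizontal, log axis) in the 24 libraries, coloured by group. Y-WT HSC replicates 1 and 4 lie alone at sums of 823 and 821 CPM, while Y-TTPΔARE MPP3 combine the highest Fcgr2b levels with sums of 176 to 212 CPM.

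Between genotypes, MPP3 differed in both Fcγ receptor genes. In Y-TTPΔARE MPP3 Fcgr3 averaged 23.1 ± 2.61 CPM against 5.94 ± 1.84 in Y-WT MPP3 (SD, n = 4 each), and the libraries given above did not overlap. It was 3.98-fold higher (log2 fold change 1.99, SE 0.24, adjusted p = 0.00187). Fcgr2b averaged 69.0 ± 9.77 CPM against 18.6 ± 3.98 and was 3.77-fold higher (1.91, SE 0.18, adjusted p = 0.000497), again without overlap. These 2 of 8 genes were called, both higher, where 2.54% of all genes were called, 2.33% higher and 0.202% lower. Both calls stood without Y-TTPΔARE replicate 4, at 1.97 (adjusted p = 0.00579) for Fcgr3 and 1.82 (adjusted p = 0.00175) for Fcgr2b.

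The other Fcγ receptor genes went the same way. Each was called higher, where 2.33% of all genes were, but Fcgr1 and Fcgr4 reached the expression limit through their level in Y-TTPΔARE MPP3, so the number called is no support. Fcgr1, the high-affinity IgG receptor, averaged 1.22 ± 0.276 CPM in WT and 4.85 ± 2.18 in TTPΔARE MPP3 (2.01, SE 0.35, adjusted p = 0.0155). Fcgr4 averaged 0.713 ± 0.264 and 5.35 ± 0.907 CPM (2.92, SE 0.33, adjusted p = 0.00119). Fcer1g, the signalling chain that the activating receptors share, averaged 41.7 ± 6.76 and 101 ± 30.3 CPM (1.30, SE 0.21, adjusted p = 0.0091). The list was chosen with these results known and is no independent evidence of the direction.

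Markers of myeloid cells that carry Fcγ receptors were higher in the same MPP3 libraries, as were those of some other cells. The sum of 8 dendritic cell markers was 883, 490.2, 482 and 682 CPM in Y-WT and 7687, 4930.3, 5131 and 8522 in Y-TTPΔARE MPP3, without overlap. Several of these markers reached the expression limit through Y-TTPΔARE MPP3, so no count of those called is given. The list includes the MHC class II presentation genes H2-Aa, H2-Ab1 and Cd74. In Y-WT HSC replicate 1 these 3 were at 201, 182 and 495 CPM of a sum of 883, and their share in MPP3 is not given here. Xcr1 and Clec9a, which mark conventional dendritic cells of the cross-presenting kind, averaged 1.43 ± 1.14 and 1.11 ± 0.463 CPM in Y-WT against 64.9 ± 17.6 and 29.1 ± 8.89 in Y-TTPΔARE MPP3. The sum of 13 monocyte or macrophage markers was 148, 150.2, 211 and 253 CPM against 772, 612, 648 and 736. Ccr2, the receptor that monocytes follow out of the marrow, was called higher (4.15, SE 0.24, adjusted p = 7.16e-05). Csf1r, the macrophage growth factor receptor, averaged 26.5 ± 7.06 and 47.7 ± 15.5 CPM and was not called. No marker of either list was at 0 in a Y-TTPΔARE MPP3 library, and Cd209a alone was at 0 in a Y-WT one. Other sums rose without overlap too, from 13.8 to 31.4 CPM in Y-WT to 54.0 to 132 in Y-TTPΔARE MPP3 for erythroid markers. They were 35.6 to 48.4 and 61.6 to 83.9 CPM for T cell markers, and 37.9 to 70.4 and 88.4 to 269 for mast cell or basophil markers. Sums of B cell, neutrophil and megakaryocyte markers overlapped, and the endothelial sum was lower, at 176 to 212 against 237 to 269 CPM. The part of any of these cells in the levels of Fcgr3 and Fcgr2b was not tested.

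The other 6 genes were not called between genotypes of MPP3. Cd48 averaged 163 ± 69.1 CPM in WT and 168 ± 40.5 in TTPΔARE MPP3 (0.087, SE 0.28, adjusted p = 0.93). Slamf1, under the expression limit there, differed by -0.48 (SE 0.46, adjusted p = 0.706), Cd34 by -0.26 (SE 0.095, adjusted p = 0.302), Ly6a by 0.52 (SE 0.24, adjusted p = 0.43) and Cd27 by 0.17 (SE 0.15, adjusted p = 0.679). Kit was lower in all 4 Y-TTPΔARE libraries, at 965, 1133, 1005 and 465 CPM, than in the lowest Y-WT library at 1224 CPM, but was not called (-0.57, SE 0.24, adjusted p = 0.382). Without replicate 4 the difference was -0.37 (adjusted p = 0.125), and it was called in a fit of all 24 libraries (adjusted p = 0.0229), the lowest of a range that reached 0.846 over the alternatives. Kit, Fcgr3 and Fcgr2b were the 3 of 8 genes whose genotypes did not overlap, against 8.69% of all genes.

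In HSC of middle-aged mice Cd34 differed between genotypes. It was at 194, 186, 232, 189 and 207 CPM in M-WT and at 109, 111 and 136 in M-TTPΔARE HSC, without overlap. The level in M-TTPΔARE HSC was 0.601 of that in M-WT HSC (log2 fold change -0.74, SE 0.085, adjusted p = 0.00252), and this call was kept in 15 of 15 alternatives, with values from -0.84 to -0.69. It was the 1 gene of 8 called, where 2.22% of all genes were called and 1.12% called lower. Gm16897, which overlaps Cd34 on the other strand, had a level that followed it closely over the 24 libraries, and the reads of each cannot be told apart without strand. Itga2b, which encodes CD41, was lower in M-TTPΔARE HSC (-1.04, SE 0.099, adjusted p = 0.000795) and Procr, which encodes the HSC marker EPCR, was higher (0.38, SE 0.061, adjusted p = 0.0115). These were the called genes among 14 tested over the expression limit on a list of other gate and stem cell surface genes.

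Slamf1 was higher in TTPΔARE HSC at both ages without passing the test. In M HSC its genotypes did not overlap (0.37, SE 0.086, adjusted p = 0.0611), and DESeq2 (adjusted p = 0.000999), library totals without scaling factors (0.0382) and no filter on low counts (0.00163) called it, with adjusted p from 0.000999 to 0.76 over the alternatives. In Y HSC the libraries given above did not overlap either (0.37, SE 0.073, adjusted p = 0.198), and DESeq2 called it (0.38, adjusted p = 8.33e-05), with a range from 8.33e-05 to 0.89. Cd34 and Slamf1 were the 2 of 8 genes without overlap between genotypes in M HSC, against 13.2% of all genes.

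In HSC of young mice edgeR's quasi-likelihood test called none of the 8 genes, beside 0.0435% of all genes. At an unadjusted p under 0.05 it had 3 (Slamf1, Cd48 and Fcgr2b), where 7.72% of all genes had such a p, DESeq2 called 2 (Slamf1 and Fcgr2b) among 304 genes in all and edgeR's likelihood ratio test called 1 (Fcgr2b) among 146, against 6 genes in all by the quasi-likelihood test. Slamf1 and Fcgr2b were the 2 genes whose genotypes did not overlap, against 5.19% of all genes. Fcgr2b was lower in Y-TTPΔARE HSC by 1.37 on the log2 scale (log2 fold change -1.37, SE 0.32, adjusted p = 0.255), with adjusted p from 0.0126 to 0.705 over the alternatives. Without Y-WT replicates 1 and 4 it was -0.48 (adjusted p = 0.204). Cd48 differed by 0.58 (SE 0.25, adjusted p = 0.658) and Fcgr3 by 0.67 (SE 0.48, adjusted p = 0.72), the latter by 1.45 (adjusted p = 0.19) without Y-WT replicates 1 and 4. Cd34, Ly6a, Kit and Cd27 differed by -0.25, 0.17, 0.075 and 0.19, each with adjusted p of 0.699 or more. Zfp36, the gene that the genotype alters, was not called by the quasi-likelihood test in Y HSC either (0.96, SE 0.21, adjusted p = 0.238). It was called in M HSC (0.97, adjusted p = 0.0020) and in MPP3 (1.80, adjusted p = 0.000646). A gene not called in Y HSC is therefore not shown to be unchanged.

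**Figure D5:**
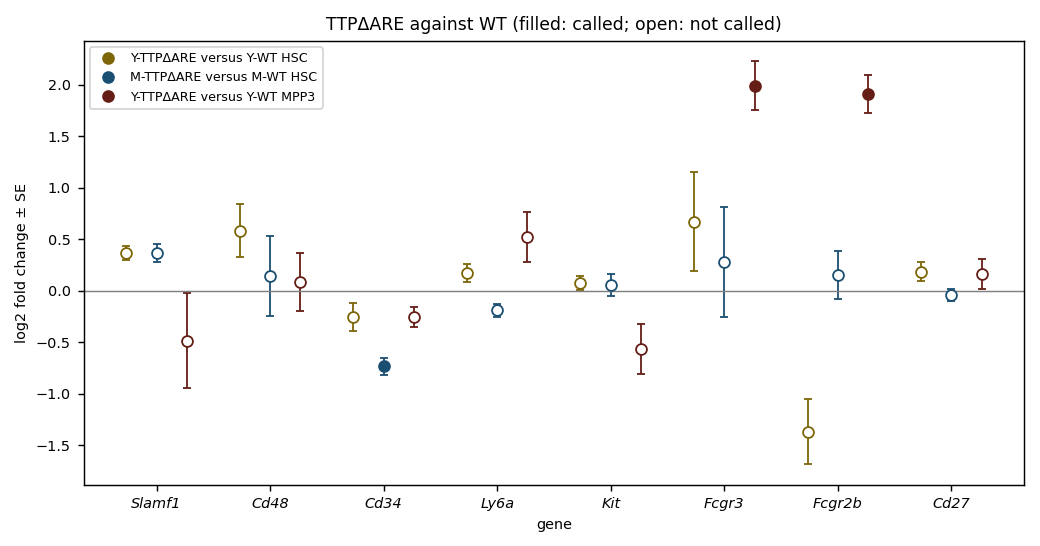
Log2 fold changes (vertical, ± SE) of the 8 genes for TTPΔARE against WT in Y HSC, M HSC and Y MPP3, with filled points for called differences and open points for those not called. The filled points are Cd34 in M HSC at -0.74 and Fcgr3 and Fcgr2b in MPP3 at 1.99 and 1.91.

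An interaction term gave the difference between the genotype effects of MPP3 and Y HSC. Fcgr2b passed, with an effect in MPP3 larger than that in Y HSC by 3.22 on the log2 scale (SE 0.45, adjusted p = 0.00235), and it was the 1 gene of 8 called, where 0.839% of all genes were called and 0.75% called higher. Without Y-WT HSC replicates 1 and 4 the difference was 2.44 (adjusted p = 0.000734), and it was called in 24 of 24 alternatives, with values from 2.44 to 3.45. Fcgr3 (1.24, SE 0.54, adjusted p = 0.408, and 0.58, adjusted p = 0.742, without that pair), Slamf1 (-0.96, SE 0.41, adjusted p = 0.40) and Kit (-0.77, SE 0.23, adjusted p = 0.20) did not pass. For the interaction of genotype and age edgeR's quasi-likelihood test called none of the 8 genes, beside 0.0439% of all genes, with 4 at an unadjusted p under 0.05 (Cd34, Ly6a, Fcgr2b and Cd27) where 15.1% of all genes had such a p, and DESeq2 called 1 (Fcgr2b, 1.52, adjusted p = 0.0429, in a range up to 0.692). Without Y-WT HSC replicates 1 and 4 that difference was 0.55 (adjusted p = 0.248). For Cd34, the gene called in M HSC only, the effect at 1 year differed from that in young HSC by -0.53 (SE 0.17, adjusted p = 0.269), so a difference between ages was not shown.

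Among the 9 SLAM family genes, others beside Slamf1 and Cd48 differed between the cell types. In Y-WT mice 3 of the 7 tested over the expression limit were higher in MPP3 and 2 were lower, beside 24.7% and 13.1% of all genes. The 2 lower ones, Slamf1 and Slamf8, reached the limit through HSC, averaging 2.22 and 2.42 CPM in Y-WT MPP3. The gates also name the proteins of Slamf1 and Cd48, so these numbers are no support. Beside Cd48, Cd244a, which encodes the receptor that binds CD48, was higher (3.32, SE 0.41, adjusted p = 0.000457), at 6.06 ± 3.11 CPM in HSC and 58.4 ± 15.1 in MPP3, and so was Ly9 (1.07, SE 0.11, adjusted p = 0.000214). Beside Slamf1, Slamf8, a SLAM family receptor of macrophages, was lower (-1.94, SE 0.34, adjusted p = 0.00291). In Y-TTPΔARE mice Slamf8 was higher in MPP3 instead (1.79, SE 0.19, adjusted p = 0.000136). Between genotypes of MPP3 it was the 1 SLAM gene called of 7 tested over the expression limit (4.12, SE 0.30, adjusted p = 0.000116), where 2.33% of all genes were called higher. Slamf8 was at 2.42 ± 1.04 CPM in WT and 41.7 ± 7.31 in TTPΔARE MPP3. It reached the limit through its level in the latter, so the number called is no support. With age Cd244a fell together with Cd48, by 1.83 in WT (SE 0.53, adjusted p = 0.0367) and by 1.34 in TTPΔARE HSC (SE 0.35, adjusted p = 0.037). No SLAM gene was called between genotypes in HSC of either age, beside 0.0435% of all genes in Y and 2.22% in M HSC.

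Ly6a varied little while its relative Ly6c2, which marks monocytes and their precursors, was higher in MPP3 than in HSC in Y-WT (2.93, SE 0.81, adjusted p = 0.0264) and Y-TTPΔARE mice (2.61, SE 0.39, adjusted p = 0.00108). Ly6c2 was the 1 gene of 5 tested in the Ly6 family called in Y-WT mice, where 37.7% of all genes were called. The count was 3 of 5 in Y-TTPΔARE mice, all higher in MPP3, where 14.6% of all genes were called higher. Among other gate and stem cell surface genes, Procr was lower in Y-WT MPP3 than in HSC (-1.04, SE 0.19, adjusted p = 0.00322) and higher in M than in Y HSC (0.57, SE 0.12, adjusted p = 0.00784 in WT, and 0.65, SE 0.077, adjusted p = 0.000655 in TTPΔARE). Flt3 went the other way with age (-1.16, SE 0.13, adjusted p = 0.000351 in WT, and -1.04, SE 0.14, adjusted p = 0.00106 in TTPΔARE), as Cd48 and Cd34 did. On this list of 16 genes 5 were called higher and 2 lower with age in WT, of 14 tested over the expression limit, beside 13.7% and 6.03% of all genes. For Y-WT MPP3 against HSC 4 were called higher and 7 lower, beside 24.7% and 13.1% of all genes.

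The genes whose log2 CPM followed each marker most closely over the 24 libraries, among 13439 genes, are given as a description. Much of such likeness comes from the contrast of HSC and MPP3, which all these libraries share, so r after centring on the group means is given beside it. For Slamf1 they were Gm11346 (r = 0.990, centred 0.49) and D630039A03Rik. For Cd48 they were Nkg7 (0.990, centred 0.78), which encodes a granule protein of cytotoxic cells, Tm6sf1 and Tespa1. For Cd34 they were its antisense gene Gm16897 (0.999, centred 0.93), Serpinb1a and Hells. Kit was followed by Kdm5b (0.955, centred 0.94), Ripor2 and Pigg, and its likeness stayed nearly as high within groups as across them. Cd27 was followed by Gm17018 (0.967, centred 0.87), Tes and Arrb2, and Ly6a by Isg20 (0.863, centred 0.82), an interferon-induced nuclease, Trappc2l and Sirt2. Fcgr3 was followed by Clec12a (0.955, centred 0.46), a myeloid lectin receptor, Otulinl and C1qc, and Fcgr2b by Acvrl1 (0.932, centred 0.61), Ifi204 and Zfp366. The r of the closest gene fell most on centring for Slamf1 and Fcgr3.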

How the data were processed

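The deposited files hold raw counts per gene symbol, 1 per library, that the authors made by trimming (Trim Galore!, Cutadapt), STAR alignment to mm10 with GENCODE M22, and featureCounts. Settings for strand and multimapping are not given in the sources used here, and the labels and the study name different SMARTer kits. In R 4.3.3, edgeR 4.0.16 and limma 3.58.1 were applied to these counts (TMM factors, filterByExpr with a minimum count of 10 and total of 15, quasi-likelihood F test, Benjamini-Hochberg adjustment over all genes tested) and, as an alternative, DESeq2 1.42.0. SE is the log2 fold change over the square root of F. Each comparison was fitted on its own groups, and the tests were tested on simulated data. The interaction has no fold limit. Between HSC and MPP3 libraries of the same number, deviations from group means correlated at 0.252, 0.299, 0.218 and 0.215 in Y-TTPΔARE mice. In Y-WT mice they did so at 0.0705, 0.176, 0.175 and 0.198. Correlations between libraries of different numbers were not computed, so a pairing by number was not shown. For MPP3 against HSC in Y-TTPΔARE mice the fit with the number as a block called the same 6 genes. The study used 3 of the 4 Y-TTPΔARE MPP3 libraries. Here all were used. Positions and UTRs come from the GENCODE M21 annotation (GRCm38), not the M22 used in counting. Beside the 8 genes, at most 4 called genes of a list per comparison (those of smallest adjusted p), genes whose level is set beside theirs, and the 3 most alike by Pearson's r were named, and 2 genes that these rules name are not reported here. Members and lists were chosen with earlier results of these data known.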

Additional observations from a re-analysis of the deposited data

Results flagged for a closer look

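The effect of TTPΔARE on Fcgr2b differed between cell types in a test of the difference itself. The interaction was 3.22 on the log2 scale (SE 0.45, adjusted p = 0.00235 by edgeR's quasi-likelihood test), with all 4 Y-TTPΔARE MPP3 libraries above all 4 Y-WT MPP3 libraries and all 4 Y-TTPΔARE HSC libraries below all 4 Y-WT HSC libraries. By the same test the difference in Y HSC alone was not called (-1.37, adjusted p = 0.255). Without Y-WT HSC replicates 1 and 4 it was -0.48, and the interaction was 2.44.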

How the results depend on the processing

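Of 1248 values of the 8 genes under alternatives, 1171 kept their direction and their side of the threshold, 34 lost a call, 14 gained one and 29 changed sign, the largest of the latter from a difference of 0.17 in absolute size. In Y HSC DESeq2 called 2 genes between genotypes and the likelihood ratio test 1, against 0, with 304 and 146 genes called in all, against 6. In M HSC DESeq2, no scaling factors and no filter on low counts called 2 each, against 1, while genes called in all numbered 835, 337 and 842, against 298. DESeq2 called 1 gene for the interaction with age, against 0. With the replicate number as a block, counts of genes called stayed within 1.5 times of those reported (0 in Y HSC, 1 in M HSC, 2 in MPP3), and the block ended the calls of Fcgr2b for MPP3 against HSC in Y-WT (-1.02, adjusted p = 0.119) and of Kit with age in WT (0.34, adjusted p = 0.13) and TTPΔARE HSC (0.33, adjusted p = 0.0667). Whether the numbers pair the libraries was not tested. Signs turned for Cd27 in M HSC with all 24 libraries in the fit (0.0030), Fcgr2b in M HSC with the replicate block (-0.071), Kit for MPP3 against HSC in Y-WT without scaling (-0.049), Ly6a for MPP3 against HSC in Y-TTPΔARE with all libraries (0.056) and Cd27 with age in WT without the filter (0.072). For the interaction with age, Slamf1 turned to 0.0039 with DESeq2, 0.0033 with RLE, 0.065 without scaling and 0.0031 with all libraries, and Kit to 0.049 without scaling. For the interaction with cell type, Cd34 turned to 0.17 without Y-WT HSC replicates 1 and 4, an alternative chosen after seeing the data. With 1 library left out in turn (88 refits), genes called with age in TTPΔARE HSC numbered 3 to 5, and signs turned between genotypes in M HSC for Kit (-0.024 to 0.13), Cd48 (-0.22 to 0.54) and Fcgr2b (-0.23 to 0.36), in MPP3 for Cd48 (-0.14 to 0.34), for MPP3 against HSC in Y-TTPΔARE for Ly6a (-0.15 to 0.095), with age in WT for Cd27 (-0.058 to 0.036), for the interaction with cell type for Cd34 (-0.20 to 0.055) and Cd27 (-0.27 to 0.11), and with age for Slamf1 (-0.17 to 0.036) and Kit (-0.18 to 0.0096). By CPM in place of CPM per kb, 34 of 48 ranks moved, and each of 16 choices of the most alike genes moved. Slamf1 in MPP3 and Fcgr3 in HSC rest on few counts.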

Other observations

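Elane, neutrophil elastase, was the 1 gene of 10 tested on the myeloid progenitor list called higher in Y-TTPΔARE than in Y-WT MPP3 (log2 fold change 2.53, SE 0.34, adjusted p = 0.00363 by edgeR's quasi-likelihood test), where 2.33% of all genes were called higher.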
